A study of Mus musculus with 16 samples.

Results

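The integrated stress response and amino acid supply genes described here are 40 mouse genes, chosen by symbol from knowledge of the ATF4 and CHOP axis, of serine and one-carbon synthesis and of amino acid transport. They were chosen with earlier results of these data known, so shares of all tested genes set beside them are a description. All 40 had a mean of 1 or more CPM (counts scaled to the library total) over the 15 distinct libraries, as did 14004 of the 54658 genes listed, and these 14004 genes were tested. The cells were C17.2α, a line of mouse cerebellar neural cells that overexpresses the thyroid hormone receptor TRα1, and all libraries come from this 1 line. Cells were exposed for 24 h, without the hormone T3, to the solvent DMSO (2 libraries) or to a strobilurin, a fungicide that blocks the bc1 complex of mitochondrial respiration. Picoxystrobin, pyraclostrobin and trifloxystrobin were each used at 30, 100, 300 and 1000 nM and azoxystrobin at 100 and 1000 nM, with 1 library for each concentration. The 16 libraries include 1 pair with identical counts, DMSO replicate 2 and azoxystrobin at 100 nM. Which of the 2 labels is right cannot be told from the counts. The azoxystrobin library of this pair was left out, so the library kept as DMSO replicate 2 may not be a control. With no replicate of a concentration, the concentrations of a compound stood in for replicates, and the p-values measure the spread between these libraries only.

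The integrated stress response starts when one of the kinases GCN2, PERK, HRI or PKR phosphorylates the initiation factor eIF2, which slows most translation and favours that of ATF4. ATF4, often with a C/EBP partner or CHOP (encoded by Ddit3), then activates genes that make or import amino acids, charge the folate cycle of the mitochondrion, and limit the response itself. Inhibition of mitochondrial respiration, shortage of an amino acid and stress of the endoplasmic reticulum are known triggers, and in neural cells the same genes supply serine, glycine and cystine.

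Library totals lay between 12292390 and 18188099, and mitochondrial transcripts took 7.93 to 12.7% of the counts. Both ends were picoxystrobin, 12.7% at 300 nM and 7.93% at 1000 nM, the libraries pooled below as its high concentrations. Over genes, the log2 difference from the DMSO mean was compared with GC content. The correlation r was -0.529, -0.603, -0.668 and 0.165 with picoxystrobin from 30 to 1000 nM, and 0.278 and -0.278 with DMSO. The part of the mitochondrial share in the comparisons was not tested. A fit with a GC and length offset is given at the end. Of the neural progenitor markers, 4 of 5 were at 1 CPM or more (Nes, Sox2, Vim and Msi1), with Pax6 near 0, and their sum was between 2720 and 3438 CPM. Oligodendrocyte markers were also expressed (4 of 5, sum 1302 to 1673 CPM), as were 3 of 5 neuron and 2 of 4 astrocyte markers, whereas the 4 microglia and blood markers and the 3 endothelial markers summed to at most 0.513 and 0.363 CPM. The 4 astrocyte markers summed to 32.5 to 38.5 CPM in the 2 libraries of pyraclostrobin at 300 and 1000 nM and to 51.3 to 61.6 CPM in the DMSO libraries. Only Aldoc was lower there, at 23.6 and 14.8 CPM against 38.2 and 46.6 CPM, whereas S100b was at 14.1 and 16.7 CPM against 12.3 and 14.1 CPM, Gfap was near 1 CPM or less in both and Aqp4 had 0 counts. The part of these markers in the results was not tested. In bulk RNA, fewer cells that express a gene and less of its RNA per cell cannot be told apart.

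ATF4 and its C/EBP partners bind a composite element, here searched as TGATGNAA on both strands of the 250 bases before each gene's start (RefSeq promoters, GRCm38.p6). Of the 34 members with a promoter there, 9 held it (26.5%), against 1056 of 27025 genes (3.91%), a description of letters and not of binding. Because the members were chosen from knowledge of the ATF4 and CHOP axis, a higher share may follow from that choice. The 9 were Fgf21, Chac1, Slc7a11, Nupr1, Asns, Atf3, Vldlr, Jdp2 and Pycr1. The sequences around the element are shown for 8 of them, chosen by the size of their change between high and low pyraclostrobin, so that a reader can set these sequences beside the expression values. Each is written 5′ to 3′ on the strand of the gene with the element in capitals, either as TGATGNAA or as its complement read in reverse. Near Slc7a11, Asns, Nupr1 and Vldlr an exon of the gene is annotated (GENCODE M21), and only the element and a few bases beside it are given.
Fgf21, chr7:45615582-45615669: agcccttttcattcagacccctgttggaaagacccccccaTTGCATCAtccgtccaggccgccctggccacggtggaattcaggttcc
Chac1, chr2:119351009-119351096: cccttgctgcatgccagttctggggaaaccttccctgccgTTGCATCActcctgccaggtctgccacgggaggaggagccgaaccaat
Slc7a11, chr3:50443652-50443680: cTGATGCAAacctggagaatTTGCATCAt
Nupr1, chr7:126625562-126625591: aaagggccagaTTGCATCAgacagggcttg
Asns, chr6:7693214-7693243: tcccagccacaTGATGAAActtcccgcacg
Atf3, chr1:191183396-191183483: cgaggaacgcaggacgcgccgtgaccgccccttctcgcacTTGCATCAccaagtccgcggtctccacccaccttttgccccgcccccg
Vldlr, chr19:27216809-27216838: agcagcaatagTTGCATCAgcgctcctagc
Jdp2, chr12:85599343-85599415: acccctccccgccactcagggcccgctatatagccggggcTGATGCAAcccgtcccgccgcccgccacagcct
The windows of Fgf21 and Chac1 lie upstream of the annotated gene, with elements that begin 139 and 193 bases before the RefSeq start. Those of Atf3 and Jdp2 lie inside introns of longer transcripts of the same gene. Slc7a11 holds the element in both orientations, beginning 66 and 47 bases before its start. With pyraclostrobin at 1000 nM, Fgf21, Chac1, Slc7a11 and Nupr1 were more than 2-fold below the DMSO mean, while Atf3 was above it, so members with the element were found on either side. Whole genes, such as Atf4 at chr15:80255184-80257541 (plus strand), Slc6a9 at chr4:117834506-117875198 (plus strand) and Nupr1 at chr7:126623249-126630861 (minus strand), were placed by the same annotation (GRCm38), and 20 of the 40 members overlap another gene, 14 of them a gene on the opposite strand.

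The members moved together from library to library, in the libraries labelled DMSO as well as in those labelled with a compound. The correlation of each member's log2 CPM with the mean of the other members had a median of 0.93 (Pearson's r over 15 libraries), and it was over 0.8 for 29 of the 40 members. Among all tested genes, the correlation with the members' mean was over 0.8 for 1.81%. Libraries share their depth and their preparation across genes, and these values are given as a description. For most members the relation did not rest only on pyraclostrobin at 300 and 1000 nM, since without these libraries the median was 0.89 and 27 members were over 0.8. The 13 libraries left still include trifloxystrobin at 30 and 100 nM, where the members' median log2 difference from DMSO was 0.36 and -0.71. The correlation without those was not computed. Single members changed more without pyraclostrobin at 300 and 1000 nM. The correlation went from 0.49 to -0.36 for Slc7a3, from 0.66 to 0.17 for Slc38a2 and from 0.69 to 0.39 for Ppp1r15a. It rose from 0.32 to 0.64 for Sesn2 and from 0.01 to 0.45 for Atf3. Gpt2, Atf5, Aldh18a1 and Stc2 followed the others most closely (r of 0.98 to 0.99), and Atf3 (0.01), Sesn2 (0.32), Ddit4 (0.46) and Cbs (-0.71) did so least. The spread over libraries was also wider, with a median standard deviation of 0.44 on the log2 scale for the members and 0.20 for all tested genes.

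The 2 libraries labelled DMSO already differed in these genes. DMSO replicate 2 was above replicate 1 for 36 of the 40 members (90%), against 50.7% of all tested genes, and the median difference was 0.27 on the log2 scale. Fgf21, a secreted metabolic hormone, had 20 counts in 1 DMSO library and 57 in the other. Aldh1l2 (220.1 and 381 CPM), Pycr1 (36.5 and 62.3 CPM) and Trib3 (22.8 and 35.2 CPM) showed the same order. Shifts of the members against DMSO are therefore to be read beside a control that varied by this much.

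**Figure D1:**
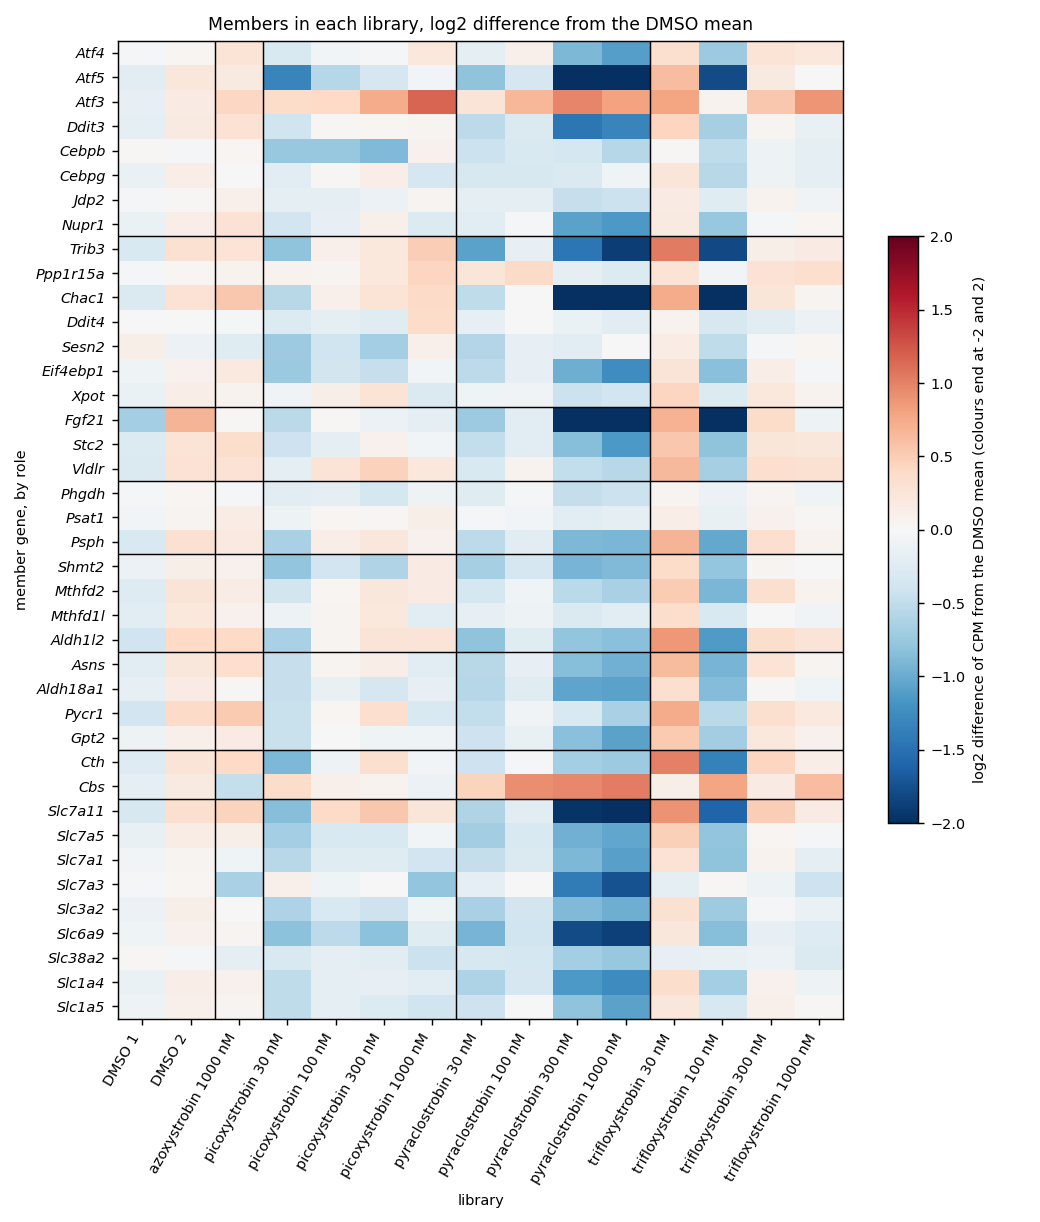
Colours give the log2 difference of each of the 40 members (rows, by role) from the DMSO mean in each of the 15 libraries (columns), blue for below and red for above. Most rows are blue with pyraclostrobin at 300 and 1000 nM and with trifloxystrobin at 100 nM, and red with trifloxystrobin at 30 nM, while Atf3 and Cbs run the other way with pyraclostrobin.

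Relative to the DMSO mean, the median member was at -0.85 and -0.93 on the log2 scale with pyraclostrobin at 300 and 1000 nM, the lowest values of the series. It was at -0.46 and -0.16 with pyraclostrobin at 30 and 100 nM. With picoxystrobin it was at -0.45, -0.08, 0.01 and -0.06 from 30 to 1000 nM, and with azoxystrobin at 1000 nM at 0.11. With trifloxystrobin the order of concentrations was not followed, since the median was 0.36 at 30 nM, -0.71 at 100 nM, 0.11 at 300 nM and 0.02 at 1000 nM. The 2 DMSO libraries stood at -0.13 and 0.13, and the median of all tested genes stayed close to 0 in each library. The libraries at 30 nM of picoxystrobin and pyraclostrobin were below both DMSO libraries for 32 and 34 members, where 41% and 37.7% of all tested genes were.

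**Figure D2:**
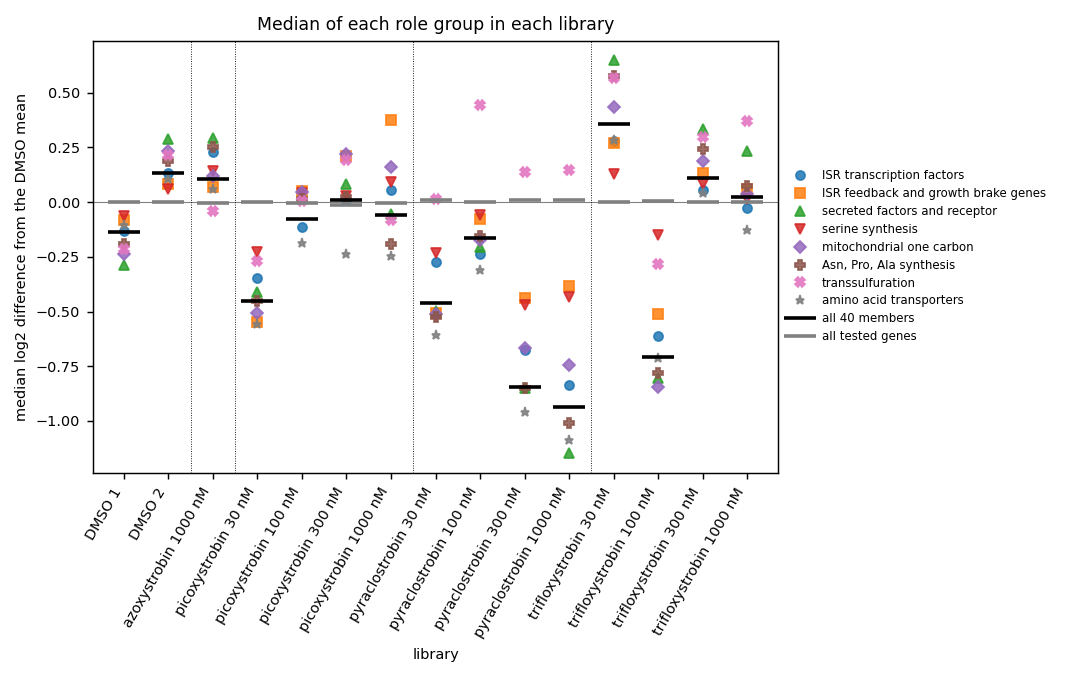
Each symbol is the median log2 difference from the DMSO mean over the members of 1 role group in 1 library, with the median of all 40 members and of all tested genes as bars. The members' bar is lowest with pyraclostrobin at 1000 nM (-0.93) and highest with trifloxystrobin at 30 nM (0.36), and the amino acid transporters stand below the serine synthesis genes in both libraries of pyraclostrobin at high concentrations.

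The trifloxystrobin library at 100 nM stood apart from its neighbours. It was below both DMSO libraries and the other 3 trifloxystrobin libraries for 36 of 40 members (23.7% of all tested genes), and 8 members were more than 2-fold below the DMSO mean (0.4% of all tested genes), namely Atf5, Trib3, Chac1, Fgf21, Psph, Aldh1l2, Cth and Slc7a11. The library at 30 nM was above both DMSO libraries and the other trifloxystrobin libraries for 34 members (16.4% of all tested genes), and it held the highest of the 15 values for 30 members (4.63% of all tested genes). Each concentration is 1 library, so neither value has a replicate check. Depth was 17818542 counts at 100 nM and 13044534 counts at 30 nM, and the mitochondrial share was 9.94 and 9.38%, and the part of either in these values was not tested. Cdkn1a, the cell cycle inhibitor activated by p53, was at 44.6 CPM with trifloxystrobin at 100 nM and at 44.2 and 37.3 CPM with DMSO, but at 134 and 140.4 CPM with pyraclostrobin at 300 and 1000 nM. It was also at 100.6 CPM with picoxystrobin at 1000 nM, where the members' median was -0.06, and at 36.6 CPM with pyraclostrobin at 30 nM, where the median was -0.46. Ccng1 was at 376 and 352 CPM with DMSO and at 1630 and 2133 CPM with pyraclostrobin at 300 and 1000 nM. It was at 840 CPM with picoxystrobin at 1000 nM, 538 CPM with trifloxystrobin at 100 nM and 539 CPM with pyraclostrobin at 30 nM. The relation of either gene to the members was not tested. Neither Cdkn1a nor Ccng1 was among the genes planned to be named, and Cdkn1a was chosen after its values were seen.

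The effect of concentration was tested inside each compound, as the 2 high (300 and 1000 nM) against the 2 low (30 and 100 nM) libraries, which does not use DMSO. For pyraclostrobin, 7 of 40 members passed the test and all 7 fell (edgeR quasi-likelihood test, Benjamini-Hochberg adjusted p under 0.05 over 14004 genes), where 3.35% of all tested genes fell. They were Atf4, Nupr1, Ppp1r15a, Slc7a3, Slc6a9, Slc38a2 and Slc1a5. The median log2 change was -0.52 for the members and -0.005 for all tested genes, and it was below 0 for 36 members. For picoxystrobin and trifloxystrobin, 0 members and 0 genes passed (background of 0% in both), with 560 and 268 genes at an unadjusted p under 0.05, and DESeq2 called 0 genes in either. Both pyraclostrobin libraries at high concentrations were below both at low concentrations and both DMSO libraries for 32 members (25.1% of all tested genes), and below the other 13 libraries for 24 members (10.8%). They were above both low and both DMSO libraries for 2 members, Atf3 and Cbs (25.6%). The library at 1000 nM held the lowest of the 15 values for 21 members (14.7%). It was more than 2-fold below the DMSO mean for 18 members (2.66%), and the library at 300 nM for 11 (1.9%). Leaving out any 1 of the 4 pyraclostrobin libraries left 0 members called, with the log2 change of each of the 7 still below 0. With picoxystrobin at 1000 nM or trifloxystrobin at 100 nM left out of the fit, although neither is part of the comparison, 14 and 16 members were called, all lower, where 10.7 and 3.73% of all tested genes were. Leaving out trifloxystrobin at 100 nM was a choice made after seeing the data. It removes a library in which the members stood apart, so the 16 calls are no separate evidence.

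Against DMSO instead of the low concentrations, the high concentrations of pyraclostrobin gave 21 members lower and 2 higher (edgeR), where 11.5% of all tested genes were lower and 10.6% higher. The 2 that rose were Atf3 and Cbs. The median log2 change was -0.93 for the members and 0.01 for all tested genes. In the test of all 4 pyraclostrobin libraries against DMSO, only Slc38a2 passed, with a log2 change of -0.52 (SE 0.12, adjusted p = 0.0491), where 1.02% of all tested genes fell. It lost the call without either DMSO library and without pyraclostrobin at 300 or 1000 nM (adjusted p up to 0.392). With trifloxystrobin at 100 nM left out of the fit, again after seeing the data, 0 members passed (0.65% of all tested genes were lower). With picoxystrobin at 1000 nM left out, 4 did (5.25%). Picoxystrobin, trifloxystrobin and azoxystrobin against DMSO gave 0 members, with 0.0286% of all tested genes called for picoxystrobin and 0% for trifloxystrobin and azoxystrobin (2351, 240 and 292 genes at an unadjusted p under 0.05). DESeq2 called 176 genes for picoxystrobin against DMSO, 0 for trifloxystrobin and 1 for azoxystrobin against DMSO, and again 0 members.

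At matched high concentrations, pyraclostrobin was compared with each of the 2 compounds tested at the same concentrations. The 4 compounds carry different forms of the strobilurin pharmacophore, a methoxyacrylate in azoxystrobin and picoxystrobin, a methoxycarbamate in pyraclostrobin and an oximinoacetate in trifloxystrobin. Against trifloxystrobin, 22 members were lower with pyraclostrobin and 0 higher (edgeR, 6.49% of all tested genes were lower), with a median log2 difference of -0.999 for the members. Against picoxystrobin, 5 members were lower (1.48% of all tested genes), with a median of -0.82. These were Atf4, Ddit3, Nupr1, Ppp1r15a and Slc6a9, all 5 of them also lower than with trifloxystrobin, in comparisons that share the pyraclostrobin libraries. With p-values adjusted jointly over the 3 pairs of compounds, 11 members passed against trifloxystrobin (3.85% of all tested genes were lower) and 8 against picoxystrobin (1.9%). The 11 were Atf4, Atf5, Ddit3, Nupr1, Ppp1r15a, Eif4ebp1, Slc7a3, Slc6a9, Slc38a2, Slc1a4 and Slc1a5. Adjusted p-values given gene by gene below are for 1 pair of compounds at a time. Without pyraclostrobin at 300 or 1000 nM, 4 and 0 members were called against trifloxystrobin and 0 in either case against picoxystrobin, and without trifloxystrobin at 300 or 1000 nM, 0 and 3 were called. Without picoxystrobin at 300 or 1000 nM, 22 and 16 members were called against picoxystrobin. With trifloxystrobin at 100 nM left out of the fit, which is part of neither comparison, 23 members were called against picoxystrobin (2.2% of all tested genes were lower) and 31 against trifloxystrobin (6.92%). This choice was made after seeing that the members stood apart in that library. The higher counts are therefore no separate evidence for a difference between the compounds.

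Picoxystrobin and trifloxystrobin were not told apart in the members at high concentrations, with 0 members and 0% of all tested genes called (892 genes at an unadjusted p under 0.05). With p-values adjusted jointly over the 3 pairs of compounds, 24 genes passed for this pair, again with 0 members. The intervals were wide. The difference was -0.14 (95% interval -0.68 to 0.40) for Atf4, 0.18 (95% interval -1.34 to 1.69) for Chac1 and 0.07 (95% interval -1.17 to 1.30) for Slc7a11, so that differences of more than 2-fold were within the interval for the last 2 genes. For Psat1 it was 0.03 (95% interval -0.21 to 0.26).

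**Figure D3:**
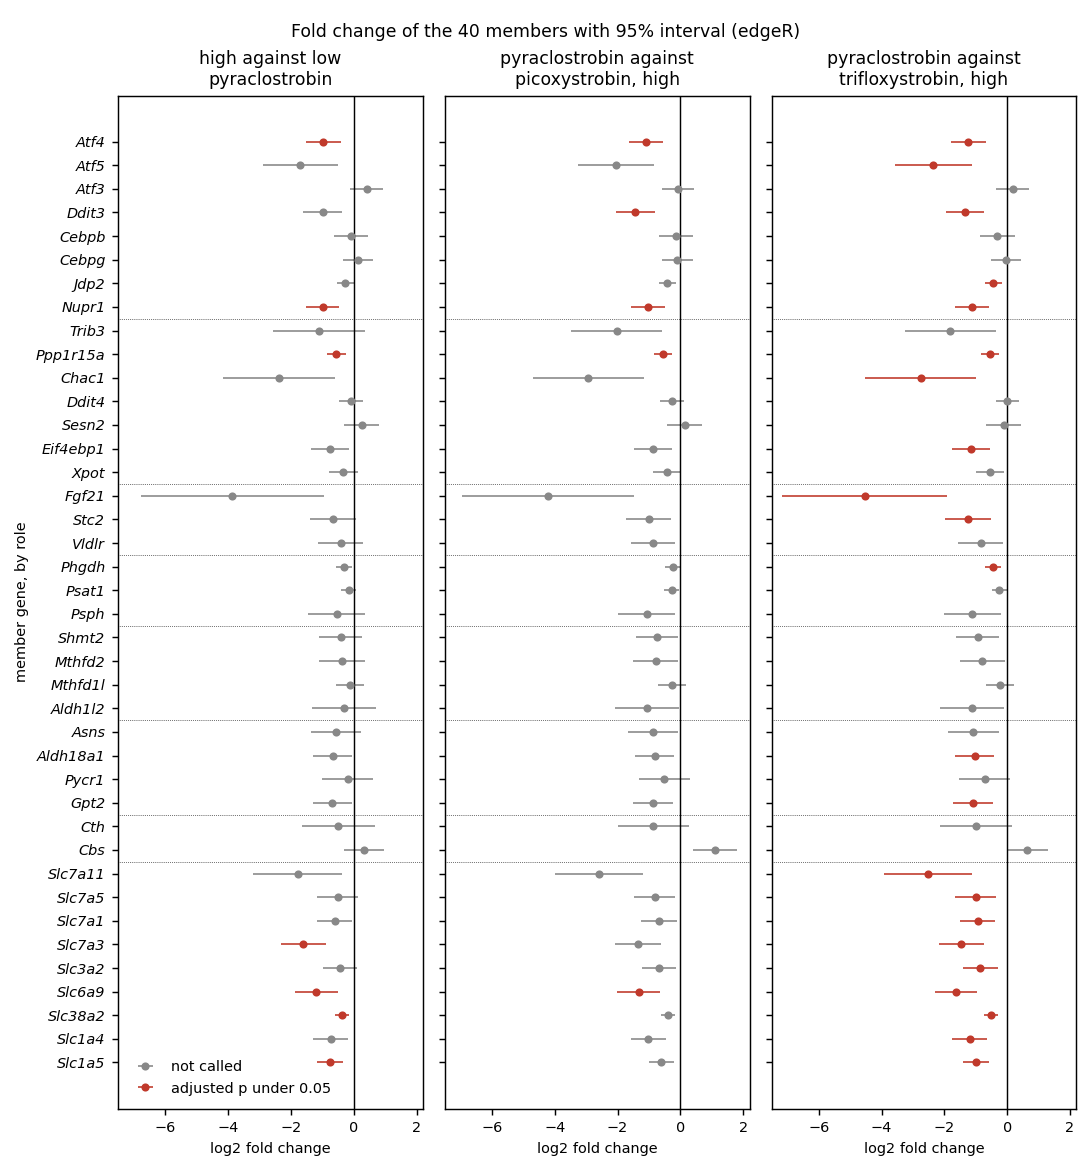
Points are the log2 fold change of each of the 40 members (rows, by role) with its 95% interval for pyraclostrobin at high against low concentrations and for pyraclostrobin against picoxystrobin and trifloxystrobin at high concentrations, in red where the adjusted p was under 0.05. Red points are on the left of 0 in all 3 panels, with 7, 5 and 22 members.

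The transcription factors of the response are described first. Values are in CPM after TMM scaling, given for the 2 DMSO libraries and then for 30, 100, 300 and 1000 nM of each compound, with azoxystrobin at 1000 nM last. Of the 8 factors, 2 fell between low and high pyraclostrobin, 5 were lower than with trifloxystrobin and 3 lower than with picoxystrobin. Of all tested genes, 3.35, 6.49 and 1.48% were lower in these comparisons. The same shares stand beside the counts of the other role groups below. Tests of all concentrations of a compound against DMSO called none of the 8. Atf4 was at 639 and 669 CPM with DMSO, 531, 626, 646 and 757 CPM with picoxystrobin, 570.5, 705, 351 and 303 CPM with pyraclostrobin, 818, 394, 792 and 753 CPM with trifloxystrobin and 792 CPM with azoxystrobin. Atf4, the central activator of the response, was thus lower in both high pyraclostrobin libraries than in the other 13 libraries. The log2 change between low and high pyraclostrobin was -0.96 (SE 0.25, adjusted p = 0.0401), and the difference was -1.24 (SE 0.25, adjusted p = 0.00984) from trifloxystrobin and -1.10 (SE 0.25, adjusted p = 0.0418) from picoxystrobin. For Atf5, the values were 72.9 and 98.9 CPM with DMSO, 34.0, 56.98, 66.9 and 81.5 CPM with picoxystrobin, 48.4, 67.2, 20.2 and 15.4 CPM with pyraclostrobin, 131, 24.6, 95.8 and 85.6 CPM with trifloxystrobin and 96.5 CPM with azoxystrobin. Atf5, which is translated under the same control as Atf4, had 15.4 CPM with pyraclostrobin at 1000 nM and 131 CPM with trifloxystrobin at 30 nM. Its change with the concentration of pyraclostrobin was -1.70 (SE 0.55, adjusted p = 0.0883), and its difference from trifloxystrobin was -2.35 (SE 0.56, adjusted p = 0.0191). Ddit3 was at 43.4 and 56.1 CPM with DMSO, 37.2, 50.1, 50.6 and 51.2 CPM with picoxystrobin, 34.3, 40.2, 17.97 and 19.6 CPM with pyraclostrobin, 66.6, 31.0, 51.04 and 44.5 CPM with trifloxystrobin and 60.6 CPM with azoxystrobin. Ddit3 encodes CHOP, and its 2 high pyraclostrobin libraries did not overlap with any other library. It differed by -1.44 (SE 0.28, adjusted p = 0.0256) from picoxystrobin and by -1.34 (SE 0.28, adjusted p = 0.0117) from trifloxystrobin, whereas the change with concentration missed the threshold at -0.98 (SE 0.28, adjusted p = 0.0579). The gene Mars lies on the opposite strand over Ddit3, and the files do not say whether reads were counted by strand. For Nupr1, the values were 35.3 and 42.2 CPM with DMSO, 29.4, 34.4, 41.4 and 31.8 CPM with picoxystrobin, 32.9, 37.9, 18.2 and 17.3 CPM with pyraclostrobin, 43.8, 22.7, 38.0 and 39.5 CPM with trifloxystrobin and 47.1 CPM with azoxystrobin. Nupr1, a small stress-induced chromatin protein, fell with the concentration of pyraclostrobin, with a log2 change of -0.99 (SE 0.25, adjusted p = 0.0331). Its values from 300 nM on were below those of any other library.

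The other 4 factors had another pattern or a narrow range, and none of them passed within pyraclostrobin. Atf3 was at 9.27 and 11.8 CPM with DMSO, 13.6, 13.8, 17.5 and 23.5 CPM with picoxystrobin, 12.5, 16.7, 20.6 and 18.3 CPM with pyraclostrobin, 18.2, 10.9, 15.2 and 19.4 CPM with trifloxystrobin and 14.0 CPM with azoxystrobin. Atf3, a repressor that is induced by many stresses, was above both DMSO libraries in 12 of the 13 libraries with a compound. It rose in high pyraclostrobin against DMSO, with a log2 change of 0.88 (SE 0.24, adjusted p = 0.0235), but not against low pyraclostrobin, at 0.42 (SE 0.24, adjusted p = 0.332). Cebpb measured 30.5 and 29.5 CPM with DMSO, 17.7, 17.7, 16.2 and 31.8 CPM with picoxystrobin, 22.1, 24.1, 23.5 and 20.2 CPM with pyraclostrobin, 30.6, 20.97, 27.9 and 26.2 CPM with trifloxystrobin and 30.8 CPM with azoxystrobin. Cebpb, a C/EBP factor, was lowest in the picoxystrobin libraries at 30 to 300 nM and near DMSO at 1000 nM, and its change with pyraclostrobin was -0.08 (SE 0.25, adjusted p = 0.888). Jdp2 was at 79.8 and 82.7 CPM with DMSO, 71.1, 70.6, 75.2 and 84.3 CPM with picoxystrobin, 71.9, 71.8, 59.1 and 60.2 CPM with pyraclostrobin, 90.6, 68.8, 85.04 and 77.4 CPM with trifloxystrobin and 86.8 CPM with azoxystrobin. Jdp2, which dimerises with other bZIP proteins, had a narrow range and still was lower with pyraclostrobin than with trifloxystrobin, with a log2 difference of -0.44 (SE 0.12, adjusted p = 0.0344). Cebpg, the partner of ATF4 on its targets, ranged from 40.1 to 69.6 CPM, and its change between low and high pyraclostrobin was 0.14 (SE 0.22, adjusted p = 0.766).

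Of the 7 feedback and growth brake genes, only Ppp1r15a fell between low and high pyraclostrobin, and Ppp1r15a, Chac1 and Eif4ebp1 were lower than with trifloxystrobin. Trib3 was at 22.8 and 35.2 CPM with DMSO, 16.1, 30.5, 32.8 and 39.9 CPM with picoxystrobin, 13.5, 25.3, 10.3 and 7.57 CPM with pyraclostrobin, 58.6, 8.0, 30.7 and 31.6 CPM with trifloxystrobin and 34.5 CPM with azoxystrobin. Trib3, a pseudokinase that restrains ATF4 and CHOP, varied between 7.57 and 58.6 CPM. At this spread between libraries its change of -1.11 (SE 0.68, adjusted p = 0.363) with the concentration of pyraclostrobin did not pass. For Chac1, the values were 21.9 and 32.5 CPM with DMSO, 18.2, 28.7, 32.2 and 35.0 CPM with picoxystrobin, 18.8, 26.7, 5.04 and 3.76 CPM with pyraclostrobin, 44.9, 2.87, 31.5 and 27.9 CPM with trifloxystrobin and 39.0 CPM with azoxystrobin. Chac1 degrades glutathione, and it was low in 3 libraries, pyraclostrobin at 300 and 1000 nM and trifloxystrobin at 100 nM. Its change with concentration was -2.36 (SE 0.82, adjusted p = 0.105), and its difference from trifloxystrobin at high concentrations was -2.76 (SE 0.81, adjusted p = 0.0443). Ppp1r15a measured 20.3 and 21.5 CPM with DMSO, 21.8, 21.6, 24.3 and 28.1 CPM with picoxystrobin, 24.9, 27.1, 18.4 and 17 CPM with pyraclostrobin, 25.2, 20.2, 25.7 and 26.4 CPM with trifloxystrobin and 21.9 CPM with azoxystrobin. Ppp1r15a encodes GADD34, which directs the phosphatase that restores eIF2. Its log2 changes were -0.55 (SE 0.13, adjusted p = 0.0304) with the concentration of pyraclostrobin, -0.55 (SE 0.13, adjusted p = 0.0199) from trifloxystrobin and -0.56 (SE 0.13, adjusted p = 0.0473) from picoxystrobin. Against DMSO, high pyraclostrobin gave -0.23 (SE 0.13, adjusted p = 0.226) and did not pass, with both low pyraclostrobin libraries above DMSO and both high ones below it. Eif4ebp1 was at 174 and 195 CPM with DMSO, 110.5, 142, 135 and 178 CPM with picoxystrobin, 129, 164, 93.5 and 78.3 CPM with pyraclostrobin, 221, 104, 202 and 182 CPM with trifloxystrobin and 212 CPM with azoxystrobin. Eif4ebp1, the translation brake 4E-BP1, differed from trifloxystrobin by a log2 difference of -1.16 (SE 0.28, adjusted p = 0.0202).

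Ddit4 and Sesn2, 2 inhibitors of mTORC1 that ATF4 shares with other stress factors such as p53, did not follow Chac1 and Trib3. Ddit4 was at 108 and 106 CPM with DMSO, 88.3, 93.3, 89.8 and 138 CPM with picoxystrobin, 95.3, 108, 96.9 and 92.7 CPM with pyraclostrobin, 112, 85.6, 90.8 and 98.1 CPM with trifloxystrobin and 105 CPM with azoxystrobin. Ddit4 was highest with picoxystrobin at 1000 nM, and its change between low and high pyraclostrobin was -0.10 (95% interval -0.48 to 0.28). For Sesn2, the values were 53.6 and 45.98 CPM with DMSO, 29.8, 37.5, 31.0 and 53.3 CPM with picoxystrobin, 33.2, 44.3, 42.4 and 49.8 CPM with pyraclostrobin, 55.1, 34.8, 48.5 and 51.05 CPM with trifloxystrobin and 41.8 CPM with azoxystrobin. Sesn2 at high pyraclostrobin overlapped with the low libraries and with DMSO, with a change of 0.25 (95% interval -0.30 to 0.81). Xpot, which exports tRNA from the nucleus, ranged from 138 to 250.3 CPM and was lowest with pyraclostrobin at 300 nM, with a change of -0.33 (SE 0.21, adjusted p = 0.39).

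**Figure D4:**
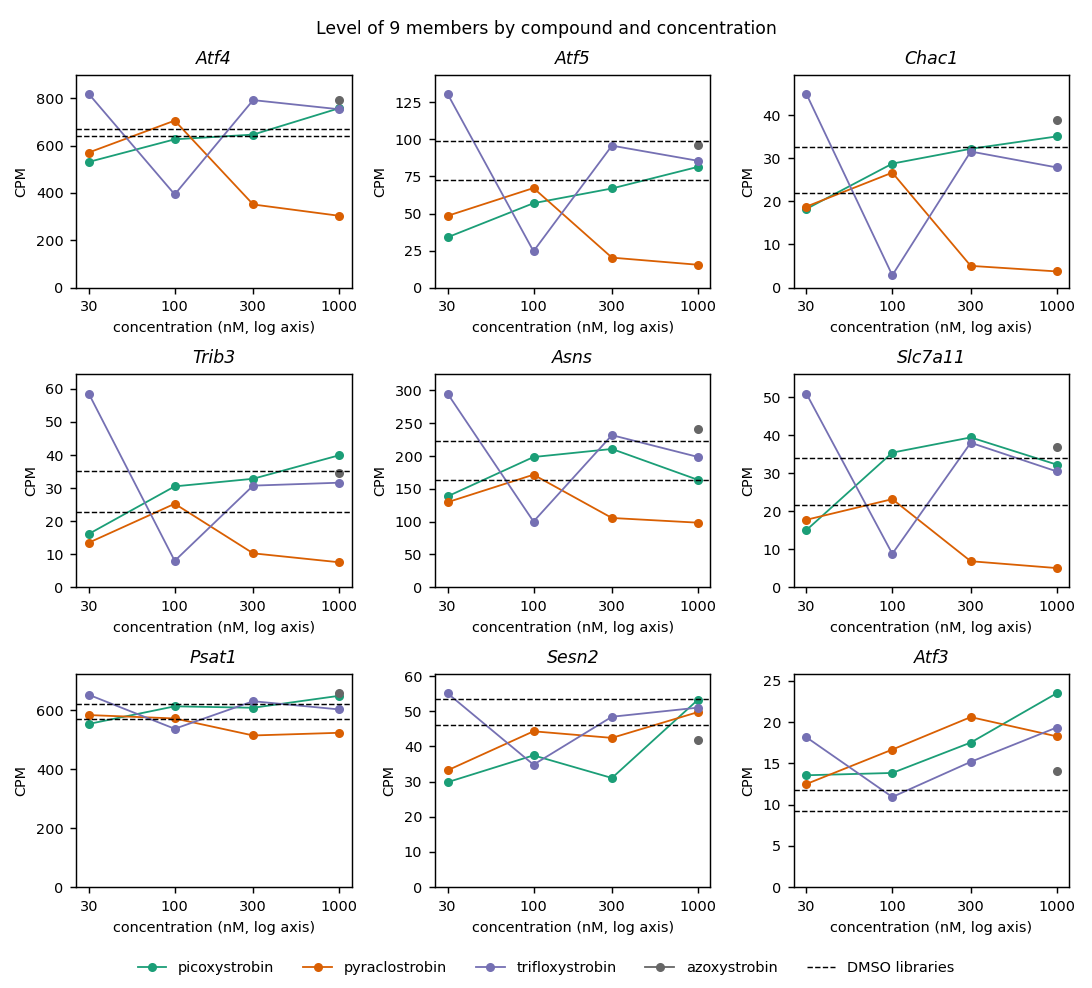
CPM of 9 members against concentration (log axis), 1 point per library, with the 2 DMSO libraries as dashed lines. Atf4, Atf5, Chac1, Trib3, Asns and Slc7a11 are below both DMSO lines with pyraclostrobin at 300 and 1000 nM and with trifloxystrobin at 100 nM, Psat1 varies over 1.28-fold, and Atf3 is above the DMSO lines with pyraclostrobin.

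Among the secreted factors and the receptor, Fgf21 and Stc2 were lower with pyraclostrobin than with trifloxystrobin at high concentrations. Fgf21 was represented by few reads, with 20 and 57 counts in the DMSO libraries, 19, 21, 2 and 1 with pyraclostrobin from 30 to 1000 nM, 44, 4, 43 and 29 with trifloxystrobin, 20, 37, 29 and 28 with picoxystrobin, and 28 with azoxystrobin. For Fgf21, the values were 1.21 and 3.34 CPM with DMSO, 1.36, 2.06, 1.86 and 1.77 CPM with picoxystrobin, 1.18, 1.72, 0.126 and 0.057 CPM with pyraclostrobin, 3.36, 0.221, 2.64 and 1.88 CPM with trifloxystrobin and 2.07 CPM with azoxystrobin. The 3 lowest libraries were the same as for Chac1. The test against trifloxystrobin passed (adjusted p = 0.0305), but with 2 and 1 counts the size of the difference depends on the prior count. Stc2 was at 18.9 and 27.6 CPM with DMSO, 17.15, 20.2, 24.2 and 22.0 CPM with picoxystrobin, 16.2, 19.8, 12.6 and 10.3 CPM with pyraclostrobin, 33.2, 13.02, 27.2 and 26.9 CPM with trifloxystrobin and 29.1 CPM with azoxystrobin. Stc2, a secreted glycoprotein, differed by -1.24 (SE 0.33, adjusted p = 0.0308) from trifloxystrobin. Vldlr measured 66.2 and 98.9 CPM with DMSO, 70.9, 98.2, 112 and 94.1 CPM with picoxystrobin, 65.5, 84.7, 57.3 and 55.1 CPM with pyraclostrobin, 127, 51.1, 102 and 99.6 CPM with trifloxystrobin and 99.1 CPM with azoxystrobin. Vldlr, the very low density lipoprotein receptor, had its lowest value with trifloxystrobin at 100 nM and its difference from trifloxystrobin at high concentrations missed the threshold, at -0.84 (SE 0.33, adjusted p = 0.112).

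Of the 3 serine synthesis genes, 1 was called in 1 comparison of compounds and 0 between low and high pyraclostrobin. Phgdh was at 46.6 and 49.2 CPM with DMSO, 40.8, 41.9, 37.4 and 44.5 CPM with picoxystrobin, 40.7, 46.5, 34.5 and 35.4 CPM with pyraclostrobin, 49.7, 44.4, 49.99 and 45.3 CPM with trifloxystrobin and 47 CPM with azoxystrobin. Phgdh, the first enzyme of the pathway, was the only one of the 3 to differ from trifloxystrobin at high concentrations, by -0.45 (SE 0.12, adjusted p = 0.0288). For Psat1, the values were 571 and 622 CPM with DMSO, 553, 613, 608 and 649 CPM with picoxystrobin, 583, 572, 514 and 523 CPM with pyraclostrobin, 652, 537, 630.2 and 602 CPM with trifloxystrobin and 657 CPM with azoxystrobin. Psat1, the aminotransferase of the second step, ranged over only 1.28-fold between its highest and lowest library, and yet it followed the other members (r of 0.92). Psph measured 50.6 and 76.7 CPM with DMSO, 39.6, 68.7, 72.8 and 66.3 CPM with picoxystrobin, 43.1, 53.8, 33.4 and 33.0 CPM with pyraclostrobin, 99.8, 30.6, 78.8 and 65.5 CPM with trifloxystrobin and 71.3 CPM with azoxystrobin. Psph, the phosphatase of the last step, ranged over 3.26-fold, and its difference from trifloxystrobin at high concentrations missed the threshold, at -1.12 (SE 0.42, adjusted p = 0.0983). The gene Cct6a overlaps Psph on the opposite strand. The steps of 1 pathway thus differed in the width of their range, with Psph wide and Psat1 narrow.

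The mitochondrial one-carbon genes had 0 calls among 4 in each comparison, although their median log2 difference between pyraclostrobin and trifloxystrobin at high concentrations was -0.87. Shmt2 was at 216 and 255 CPM with DMSO, 136, 179.8, 155 and 263 CPM with picoxystrobin, 148, 186, 123 and 127 CPM with pyraclostrobin, 304, 138, 245 and 236 CPM with trifloxystrobin and 250.2 CPM with azoxystrobin. Shmt2 splits serine in the mitochondrion. It differed from trifloxystrobin by -0.94 (SE 0.31, adjusted p = 0.0668). For Mthfd2, the values were 82.8 and 118 CPM with DMSO, 76.7, 102, 116 and 111 CPM with picoxystrobin, 77.0, 93.0, 67.8 and 63.0 CPM with pyraclostrobin, 139.7, 52.2, 123 and 103 CPM with trifloxystrobin and 109 CPM with azoxystrobin. Mthfd2, the next enzyme of the folate cycle, differed by -0.79 (SE 0.33, adjusted p = 0.14). Aldh1l2 measured 220.1 and 381 CPM with DMSO, 184, 299.5, 347 and 344 CPM with picoxystrobin, 166, 244, 168 and 162 CPM with pyraclostrobin, 531, 132, 371 and 346 CPM with trifloxystrobin and 379.7 CPM with azoxystrobin. Aldh1l2, which oxidises formyl-folate, was lowest with trifloxystrobin at 100 nM and highest at 30 nM of the same compound, a 4.01-fold range. Its difference between the compounds at high concentrations was -1.12 (SE 0.47, adjusted p = 0.14). Mthfd1l, which releases formate, kept between 63.0 and 100.2 CPM.

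Of the asparagine, proline and alanine genes, Aldh18a1 and Gpt2 were lower with pyraclostrobin than with trifloxystrobin. Asns was at 164 and 223 CPM with DMSO, 139, 198, 211 and 164 CPM with picoxystrobin, 129.7, 172, 106 and 98.5 CPM with pyraclostrobin, 295, 100.2, 232 and 199 CPM with trifloxystrobin and 241 CPM with azoxystrobin. Asns, asparagine synthetase and a standard readout of ATF4, was lowest in the 2 high pyraclostrobin libraries and in trifloxystrobin at 100 nM, 3 libraries within 98.5 to 106 CPM. Its difference from trifloxystrobin missed the threshold, at -1.08 (SE 0.37, adjusted p = 0.0783), as did its change with concentration, at -0.56 (SE 0.37, adjusted p = 0.406). For Aldh18a1, the values were 135 and 167 CPM with DMSO, 109, 135, 119 and 134 CPM with picoxystrobin, 101, 127, 72.2 and 71.1 CPM with pyraclostrobin, 189, 82.2, 153 and 142 CPM with trifloxystrobin and 152 CPM with azoxystrobin. Aldh18a1 makes the precursor of proline, and it differed by -1.04 (SE 0.28, adjusted p = 0.0331). Pycr1 measured 36.5 and 62.3 CPM with DMSO, 35.1, 48.8, 60.3 and 38.4 CPM with picoxystrobin, 34.0, 45.3, 38.7 and 30.5 CPM with pyraclostrobin, 79.6, 32.7, 59.3 and 54.9 CPM with trifloxystrobin and 68.6 CPM with azoxystrobin. Pycr1, which completes proline, had its lowest value with pyraclostrobin at 1000 nM, but its values at 30 and 300 nM were close to each other and to the first DMSO library. Gpt2 was at 72.5 and 83.3 CPM with DMSO, 57.2, 77.6, 73.1 and 73.2 CPM with picoxystrobin, 58.6, 70.0, 43.3 and 37.1 CPM with pyraclostrobin, 112, 47.8, 89.7 and 82.7 CPM with trifloxystrobin and 87.4 CPM with azoxystrobin. Gpt2, the mitochondrial alanine aminotransferase, had the highest correlation with the other members (0.99) and differed from trifloxystrobin by -1.10 (SE 0.29, adjusted p = 0.0296).

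The 2 transsulfuration genes stood on opposite sides of DMSO with high pyraclostrobin. Cth was at 23.2 and 33.0 CPM with DMSO, 14.8, 25.9, 34.5 and 26.7 CPM with picoxystrobin, 20.7, 27.0, 17.15 and 16.6 CPM with pyraclostrobin, 55.8, 10.8, 37.3 and 30.2 CPM with trifloxystrobin and 36.4 CPM with azoxystrobin. Cth, which releases cysteine from cystathionine, was highest with trifloxystrobin at 30 nM and lowest at 100 nM, a 5.16-fold range, and no comparison called it. Cbs, which forms cystathionine, had only 9 to 37 counts per library, and its correlation with the other members was below 0. It rose in high pyraclostrobin against DMSO, with a log2 change of 1.06 (SE 0.31, adjusted p = 0.0304). Its 2 high pyraclostrobin libraries had 32 and 37 counts, those of DMSO 14 and 19 counts, and trifloxystrobin at 100 nM 32 counts.

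The amino acid transporters were the group with the most calls. All 9 were lower with pyraclostrobin than with trifloxystrobin at high concentrations (6.49% of all tested genes were lower). Between low and high pyraclostrobin, 4 of 9 fell (3.35%). Both high pyraclostrobin libraries were below the other 13 libraries for each of the 9 (10.8%). With p-values adjusted jointly over the 3 pairs of compounds, Slc7a11, Slc7a5, Slc7a1 and Slc3a2 no longer passed against trifloxystrobin. Slc7a11 was at 21.7 and 34.0 CPM with DMSO, 15.1, 35.5, 39.5 and 32.3 CPM with picoxystrobin, 17.8, 23.2, 6.87 and 5.07 CPM with pyraclostrobin, 51.01, 8.83, 38.1 and 30.5 CPM with trifloxystrobin and 36.9 CPM with azoxystrobin. Slc7a11, the cystine and glutamate exchanger, had the widest range of the 9, between 5.07 and 51.01 CPM. Its log2 difference between pyraclostrobin and trifloxystrobin was -2.53 (SE 0.64, adjusted p = 0.0255). For Slc7a5, the values were 315 and 387 CPM with DMSO, 217, 283, 282 and 335 CPM with picoxystrobin, 216, 282, 179 and 170.3 CPM with pyraclostrobin, 486, 202, 359.9 and 339 CPM with trifloxystrobin and 379 CPM with azoxystrobin. Slc7a5 imports large neutral amino acids, and it differed by -0.999 (SE 0.30, adjusted p = 0.0483). Slc3a2 measured 221 and 262 CPM with DMSO, 156, 195, 180.2 and 226 CPM with picoxystrobin, 154, 187, 130.03 and 122 CPM with pyraclostrobin, 297, 147, 237 and 219.9 CPM with trifloxystrobin and 239 CPM with azoxystrobin. Slc3a2, the heavy chain that Slc7a5 and Slc7a11 need, differed by -0.86 (SE 0.25, adjusted p = 0.045). Slc7a1 was at 172 and 185 CPM with DMSO, 122, 152, 151 and 137 CPM with picoxystrobin, 128, 147, 95.6 and 84.0 CPM with pyraclostrobin, 218, 103, 188 and 156 CPM with trifloxystrobin and 168 CPM with azoxystrobin. Slc7a1, a carrier of cationic amino acids, differed by -0.94 (SE 0.26, adjusted p = 0.0342).

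The 4 calls within pyraclostrobin were the glycine carrier Slc6a9, Slc38a2, Slc1a5 and the cationic carrier Slc7a3. Slc6a9 was at 29.1 and 32.8 CPM with DMSO, 17.5, 21.6, 17.4 and 26.0 CPM with picoxystrobin, 16.2, 23.4, 8.89 and 8.37 CPM with pyraclostrobin, 36.0, 17.1, 27.7 and 25.7 CPM with trifloxystrobin and 32.2 CPM with azoxystrobin. Slc6a9, the glycine transporter GLYT1, stood below both DMSO libraries already at 30 nM of pyraclostrobin and picoxystrobin and was lowest at 1000 nM of pyraclostrobin. Its change between low and high pyraclostrobin was -1.19 (SE 0.32, adjusted p = 0.0435), and it differed from trifloxystrobin by -1.63 (SE 0.31, adjusted p = 0.00771) and from picoxystrobin by -1.33 (SE 0.31, adjusted p = 0.048). B4galt2 and Ccdc24 overlap Slc6a9 on the opposite strand. For Slc38a2, the values were 941 and 918 CPM with DMSO, 751, 818, 803 and 692 CPM with picoxystrobin, 743, 728, 579.5 and 548 CPM with pyraclostrobin, 826, 838, 861 and 757 CPM with trifloxystrobin and 824 CPM with azoxystrobin. Slc38a2, the carrier SNAT2 that adapts to amino acid supply, was highest in the DMSO libraries and lower in all 13 libraries with a compound. It was not low with trifloxystrobin at 100 nM, unlike most members. Its change with the concentration of pyraclostrobin was -0.38 (SE 0.10, adjusted p = 0.0454). Slc1a5 measured 110.0 and 127 CPM with DMSO, 83.3, 105, 97.6 and 90.0 CPM with picoxystrobin, 88.7, 118, 67.4 and 55.9 CPM with pyraclostrobin, 138, 95.1, 127 and 121 CPM with trifloxystrobin and 123 CPM with azoxystrobin. Slc1a5, a glutamine carrier, fell with a log2 change of -0.75 (SE 0.19, adjusted p = 0.0357) between low and high pyraclostrobin. Slc1a4 was at 97.1 and 117 CPM with DMSO, 74.7, 93.9, 95.7 and 92.6 CPM with picoxystrobin, 69.6, 84.95, 48.2 and 44.8 CPM with pyraclostrobin, 137, 66.3, 113 and 99.95 CPM with trifloxystrobin and 114 CPM with azoxystrobin. Slc1a4, which carries serine and alanine, had a change with the concentration of pyraclostrobin that missed the threshold, at -0.73 (SE 0.26, adjusted p = 0.107), and differed by -1.19 (SE 0.26, adjusted p = 0.0127) from trifloxystrobin. For Slc7a3, the values were 2.302 and 2.46 CPM with DMSO, 2.58, 2.22, 2.37 and 1.33 CPM with picoxystrobin, 2.05, 2.37, 0.82 and 0.626 CPM with pyraclostrobin, 2.06, 2.43, 2.21 and 1.75 CPM with trifloxystrobin and 1.48 CPM with azoxystrobin. Slc7a3, a second cationic carrier, was counted 11 to 44 times per library, and it fell with a log2 change of -1.60 (SE 0.33, adjusted p = 0.0175). With trifloxystrobin at 100 nM it had 44 counts, and so it was not among the members that were low there.

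Genes of the same pathway outside the 40 were counted for comparison. Among all 14004 tested genes, 955 were called in either direction between low and high pyraclostrobin. At high concentrations 1800 were called against trifloxystrobin, 344 against picoxystrobin and 3102 against DMSO. The lists are short, and counts near these shares are not read as a result about a list. Of 17 genes for the eIF2 kinases, eIF2, eIF2B and their regulators, only Oma1, the mitochondrial protease that relays stress to the response, rose between low and high pyraclostrobin (log2 change 0.53, SE 0.14, edgeR adjusted p = 0.0476). The median change of these 17 was -0.08. Of 13 tested amino acid transporters that are no members, 2 passed in this comparison, and Slc38a4 had the larger change (-1.89, SE 0.27, edgeR adjusted p = 0.0049). None of 6 tested genes for cytosolic one-carbon metabolism passed. Of 12 chaperone and sensor genes of the endoplasmic reticulum, which answer mainly to IRE1 and ATF6, 1 passed, Edem1 (0.43, SE 0.10, edgeR adjusted p = 0.0233), and the median was -0.07. Against trifloxystrobin at high concentrations, 1 of 17, 4 of 13, 1 of 6 and 4 of 12 passed in these lists, in both directions for the transporters (2 higher, 2 lower) and for the chaperone list (3 higher, 1 lower), with medians between -0.13 and 0.01, where the members' median was -0.999. Against picoxystrobin, Slc38a4 and Herpud1 passed and both were lower. The tests of all concentrations of a compound against DMSO called 0 genes of these 4 lists. High pyraclostrobin against DMSO called 3 of 17 (2 higher, 1 lower), 4 of 13 (2 higher, 2 lower), 1 of 6 (lower) and 3 of 12 (1 higher, 2 lower), with medians between -0.15 and -0.02. In that comparison 11.5% of all tested genes were lower and 10.6% higher.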

How the data were processed

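Per the labels and the study's methods, RNA from mouse C17.2α cells was made into libraries with the SENSE total RNA kit and sequenced from a single end, and the submitters' processing notes name Bowtie2 2.3.2.2 and the build mm10. The authors counted reads per gene with htseq-count and deposited raw counts, 1 file per library. The annotation and the use of strand are not given in the sources used here.

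The members and lists were chosen with earlier results of these data known. Azoxystrobin at 100 nM had the same counts as DMSO replicate 2 and was left out, although which label is right is not known. The 14004 genes with a mean CPM of 1 or more went into edgeR 4.0.16 (R 4.3.3; quasi-likelihood test) with TMM factors and Benjamini-Hochberg adjustment, called under 0.05, in 1 model with a level per compound and 1 with low (up to 100 nM) and high levels. The test was also run on simulated counts with known changes. These were drawn independently for each gene, so that run does not speak for members that move together. The study used DESeq2 and a minimum of 10 CPM, which are alternatives here (DESeq2 1.42.0), as are RLE factors, no filter, a GC and length offset, all 16 libraries, other codings of concentration and each library left out. Standard errors came from the test statistic, and 2 was the prior count for log2 values of single libraries. Members named for their role and members called in a comparison are given by library. Positions are from GENCODE M21 (GRCm38). At 1 CPM a library holds few counts of a gene, and counting error is then large.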

Additional observations from a re-analysis of the deposited data

Results flagged for a closer look

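Among 120 groups of 4 libraries of 1 compound and 1 member, 7 held a library far from the other 3 by Dixon's test at the 95% level (5.83 per 100 groups, where chance gives about 1 in 20). They were Atf4 with trifloxystrobin at 100 nM (394 CPM), Ddit3 and Slc1a4 with picoxystrobin at 30 nM (37.2 and 74.7 CPM), Cebpb and Ddit4 with picoxystrobin at 1000 nM (31.8 and 138 CPM), Aldh1l2 with pyraclostrobin at 100 nM (244 CPM), and Cebpg with pyraclostrobin at 1000 nM (55.8 CPM).

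Members that differed between compounds at high concentrations (edgeR) are given here as log2 differences. With pyraclostrobin against picoxystrobin they were Atf4 (-1.10), Ddit3 (-1.44), Nupr1 (-1.04), Ppp1r15a (-0.56) and Slc6a9 (-1.33). With pyraclostrobin against trifloxystrobin, the regulators were Atf4 (-1.24), Atf5 (-2.35), Ddit3 (-1.34), Jdp2 (-0.44), Nupr1 (-1.12), Ppp1r15a (-0.55), Chac1 (-2.76) and Eif4ebp1 (-1.16). The secreted factors were Fgf21 (-4.54, from few counts) and Stc2 (-1.24), and the enzymes were Phgdh (-0.45), Aldh18a1 (-1.04) and Gpt2 (-1.10). The transporters were Slc7a11 (-2.53), Slc7a5 (-0.9994), Slc7a1 (-0.94), Slc7a3 (-1.46), Slc3a2 (-0.86), Slc6a9 (-1.63), Slc38a2 (-0.52), Slc1a4 (-1.19) and Slc1a5 (-1.01).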

How the results depend on the processing

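The numbers of members called depended on the setting more than their directions did, and the cause was not tested. Without a filter on low counts, 23 members were called for pyraclostrobin against DMSO, 24 between high and low pyraclostrobin, 30 against picoxystrobin, 1 for picoxystrobin against DMSO and 3 between high and low picoxystrobin. DESeq2 called 3, 11 and 16 in the first 3 of these, the GC and length offset 12 and the fit with 16 libraries 10 against picoxystrobin. Without picoxystrobin at 1000 nM in the fit, 4 were called for pyraclostrobin against DMSO and 14 between high and low, and with only the compound and DMSO in the fit, 0 against DMSO. In place of pyraclostrobin high against low concentrations, high against DMSO gave 23 (3102 genes) and a slope on concentration 0 (443 genes, against 955). All 4 matched concentrations, with concentration as a block, gave 0 against picoxystrobin and 0 against trifloxystrobin (2 genes each). Over all genes, 184 were called for pyraclostrobin against DMSO, but 313 with 16 libraries, 874 by DESeq2, 1195 without a filter, 1204 without picoxystrobin at 1000 nM and 0 with only the compound and DMSO. For pyraclostrobin high against low concentrations 955 genes compare with 1547 without a filter, 1632 with the offset and 3039 without picoxystrobin at 1000 nM. For pyraclostrobin against picoxystrobin at high concentrations 344 compare with 545 (16 libraries), 648 (DESeq2), 907 (no filter), 927 (offset) and 2 (block), and for pyraclostrobin against trifloxystrobin at high concentrations 1800 with 4222 without picoxystrobin at 1000 nM. For picoxystrobin against DMSO, 4 compare with 176 by DESeq2 and 210 without a filter. With trifloxystrobin at 100 nM left out, a choice made after seeing the data, 0, 16, 23 and 31 members were called for pyraclostrobin against DMSO, high against low, against picoxystrobin and against trifloxystrobin.

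With each library of a comparison left out in turn, the ranges were 0 to 9 for pyraclostrobin against DMSO, 0 to 0 between high and low, 0 to 22 against picoxystrobin and 0 to 4 against trifloxystrobin, and 0 to 2, 0 to 5, 0 to 3 and 0 to 1 for picoxystrobin against DMSO, picoxystrobin high against low, picoxystrobin against trifloxystrobin and trifloxystrobin high against low. A level left with 1 library is then assumed to vary like the others. Between high and low pyraclostrobin, 4 uncalled members changed sign in single fits, Cebpb (0.0883 with the offset, 0.0218 without pyraclostrobin replicate 4, at 1000 nM) and Pycr1 (0.0259 without replicate 2, at 100 nM, the highest of a range from -0.39), and Cebpg and Sesn2 were at -0.19 and -0.11 against DMSO. The labels number only the DMSO libraries as replicates, so that concentration was the sole basis for a matched fit.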
